A study of Mus musculus with 4 samples.

Results

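The cholesterol and fatty acid synthesis genes examined here are 35 genes chosen by name. They cover the enzymes that build cholesterol and prenyl groups from acetyl-CoA, the regulators that tune those enzymes, and the enzymes that make and desaturate fatty acids. Of the 35, 34 were measured, among 19083 genes with 1 symbol in the array annotation. Acat2, a cytosolic thiolase, had no feature under its symbol in the annotation used. Their transcripts were compared between 2 populations of mouse embryonic stem (ES) cells, one with a hairpin that targets exon 1 of Fmr1 (shFmr1) and one with a random hairpin (shCT), in a study of FMRP, the RNA-binding protein that Fmr1 encodes, in neurogenesis. In both populations the hairpin came from a lentivirus that also expressed GFP, and cells sorted by flow cytometry were grown on without cloning. The sources used here name neither the ES line nor the promoter that drives the hairpin. Each of 4 Agilent 2-colour arrays set 1 shFmr1 RNA against 1 shCT RNA, with 0.2 µg of RNA of integrity number 9 in each channel. Replicates 1 and 3 carried shFmr1 in Cy5, and replicates 2 and 4 carried it in Cy3.

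Values are the authors' deposited log ratios, read as log2 ratios of shFmr1 over shCT. The base and the direction are not stated. The direction is called likely because Fmr1 itself was below 0 in both dye orientations, at -0.86, -1.65, -1.34 and -1.61 in replicate order (mean -1.37 ± 0.36, SD, n = 4, limma adjusted p = 0.156). No channel intensities were used here, so neither the level of a gene nor its detection could be judged. Lists of 4 values below are in replicate order, means are given ± SD over the 4 arrays, and n = 4 throughout. The labels do not tie the replicates to separate cultures, and the p-values therefore cover the spread between these 4 arrays, which may be technical. In RNA from whole cultures, fewer cells of a type and less RNA per cell cannot be told apart.

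Cholesterol is made through the mevalonate pathway, in which acetyl-CoA units are condensed to mevalonate, turned into 5-carbon prenyl units, joined to squalene and closed to the first sterol, lanosterol, which a chain of further enzymes converts to cholesterol. Most of these genes are transcribed under SREBP2, encoded by Srebf2, while SREBP1, encoded by Srebf1, leans toward fatty acid genes. SREBPs are held in the endoplasmic reticulum with SCAP and the INSIG proteins when sterols are plentiful, and move to the Golgi for cleavage when sterols fall, which lets the genes of the pathway move as a block.

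Promoter windows of 6 of the genes are shown. Hmgcs1 held the only exact match to the searched form of the sterol regulatory element among the 27 genes of the set with a window. The others are all 5 genes that had 1 sign on every array (Tm7sf2, Lss, Nsdhl and Srebf2 below 0, Elovl6 above 0). Each is the 250 bases before a RefSeq transcription start in GRCm38.p6, 5′ to 3′ on the gene's strand. The Lss window reaches into the gene, whose first base in the RefSeq gene list is 76531565. Capitals mark matches, on either strand, to TCACNCCAC (a form of the sterol regulatory element), CCAAT (bound by NF-Y), GGGCGG (bound by Sp1) and CACGTG (an E-box). No matches overlapped in these windows.
Hmgcs1 (chr13:119690101-119690350, plus strand): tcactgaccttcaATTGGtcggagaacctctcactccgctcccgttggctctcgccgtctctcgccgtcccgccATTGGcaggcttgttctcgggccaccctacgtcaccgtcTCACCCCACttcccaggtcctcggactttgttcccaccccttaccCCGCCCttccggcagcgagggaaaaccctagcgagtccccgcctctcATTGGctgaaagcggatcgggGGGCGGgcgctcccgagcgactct
Tm7sf2 (chr19:6067851-6068100, minus strand): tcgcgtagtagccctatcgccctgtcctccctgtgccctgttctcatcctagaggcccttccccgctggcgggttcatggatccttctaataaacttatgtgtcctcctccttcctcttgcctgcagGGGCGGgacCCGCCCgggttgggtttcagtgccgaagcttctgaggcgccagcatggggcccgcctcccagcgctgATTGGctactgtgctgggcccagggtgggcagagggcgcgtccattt
Lss (chr10:76531355-76531604, plus strand): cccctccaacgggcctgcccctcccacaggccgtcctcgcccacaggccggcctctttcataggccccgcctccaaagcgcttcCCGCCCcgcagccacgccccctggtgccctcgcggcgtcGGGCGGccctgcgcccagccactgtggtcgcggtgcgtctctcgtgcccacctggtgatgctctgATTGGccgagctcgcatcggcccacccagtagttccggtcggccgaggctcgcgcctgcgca
Nsdhl (chrX:72918271-72918520, plus strand): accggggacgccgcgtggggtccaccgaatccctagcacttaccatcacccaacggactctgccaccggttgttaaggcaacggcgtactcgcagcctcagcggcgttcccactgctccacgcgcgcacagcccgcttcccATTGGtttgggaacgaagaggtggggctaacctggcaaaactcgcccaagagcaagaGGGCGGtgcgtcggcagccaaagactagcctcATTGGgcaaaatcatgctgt
Srebf2 (chr15:82147019-82147268, plus strand): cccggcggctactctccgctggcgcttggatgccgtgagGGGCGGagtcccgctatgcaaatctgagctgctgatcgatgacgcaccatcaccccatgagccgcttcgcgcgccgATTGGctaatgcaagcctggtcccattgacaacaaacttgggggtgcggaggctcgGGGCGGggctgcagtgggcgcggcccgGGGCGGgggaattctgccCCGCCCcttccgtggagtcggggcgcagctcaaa
Elovl6 (chr3:129532136-129532385, plus strand): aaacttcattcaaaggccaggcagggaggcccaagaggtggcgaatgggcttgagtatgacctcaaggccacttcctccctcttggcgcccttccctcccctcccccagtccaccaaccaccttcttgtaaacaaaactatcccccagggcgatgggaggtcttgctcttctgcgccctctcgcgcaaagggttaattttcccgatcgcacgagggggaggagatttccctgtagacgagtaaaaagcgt
The Hmgcs1 window held the sterol regulatory element letters TCACCCCAC beginning 137 bases before the start, beside 3 NF-Y and 2 Sp1 matches. The Srebf2 window held 4 Sp1 matches and 1 NF-Y match, and the Elovl6 window held no match to any of the 4 motifs.

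Of the 34 measured genes, 27 had a promoter window in the RefSeq table, counted over 250 bases before and 50 after the start and over both strands. Sqle, Fdft1, Fdps, Scd1, Scd2, Fads1 and Stard4 had no window and were not searched. Only exact matches to the letters given were counted, and other forms of the sterol regulatory element were not searched. CCAAT was found in 23 of the 27 (85.2%), against 41.1% of all 27025 genes with such a window. GGGCGG was found in 22 (81.5%), against 38.2%. In the set 20 genes held both, and the share of all genes with both was not counted. CACGTG was found in 5, namely Hsd17b7, Sc5d, Dhcr7, Scap and Insig1, or 18.5% against 8.09%, and TCACNCCAC in Hmgcs1 alone, or 3.70% against 1.44%. The windows of the set were also richer in G and C, with a median of 62.3% against 52.7% over all windows, and the part of base composition in these shares was not tested. Acaca and Elovl6 held none of the 4 motifs, and the share of all genes with none was not counted. The bars of motif shares put the set beside all genes.

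**Figure D1:**
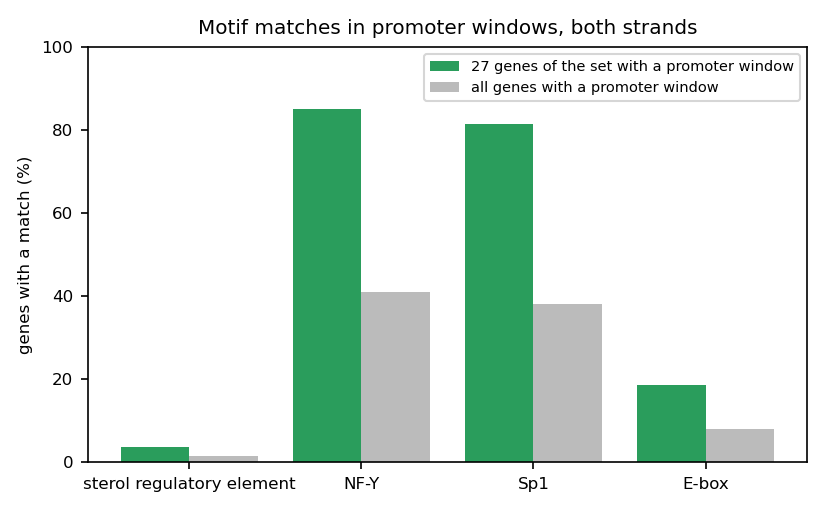
Share of genes (%) with at least 1 match to each motif in the promoter window, on both strands, for the 27 genes of the set with a window and for all 27025 genes with one. The NF-Y bar stands at 85.2% for the set and 41.1% for all genes, and the Sp1 bar at 81.5% and 38.2%.

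None of the 34 genes passed the test for a difference between shFmr1 and shCT cells. Each gene was fitted with limma over all 4 arrays with a dye term, and p-values were adjusted over all 19083 genes. The adjusted p of the 34 ran from 0.973 to 1.00, and 0 of all genes passed adjusted p of 0.05 (0%). At an unadjusted p under 0.05 there were 0 of the 34, where 3.77% of all genes had one, 2.05% lower and 1.71% higher. The smallest unadjusted p of the set was 0.0892, for Tm7sf2. With 4 arrays, the 16 sign flips of an exact permutation test of a single gene cannot reach p of 0.05.

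The means of the 34 genes were small. They ran from -0.22 (Ggps1) to 0.18 (Insig2), and 26 of 34 were below 0, against 50.5% of all genes, and 8 above it, against 49.5%. The median over the 34 was -0.07, against 0.00 over all genes. The mean exceeded the SD in size for 5 genes, Lss, Tm7sf2, Nsdhl, Srebf2 and Elovl6, or 5 of 34 where 11.7% of all genes did so. The 95% confidence intervals come from the moderated fit, with the dye term taken out and the variance of each gene drawn toward that of all genes. They therefore do not follow the SDs given with the means. The intervals cover no more than variation between these 4 arrays, with the values read as log2. Read as natural logs, they would be wider. They do not cover differences between the features of a gene, whose means lay up to 0.57 apart (Ggps1). For 33 of the 34 the whole interval lay inside a 1.5-fold change in either direction, as it did for 93.0% of all genes, and the exception was Ggps1 (-0.65 to 0.21). For 4 of the 34 it lay inside 1.2-fold, against 19.9% of all genes. The plot of intervals shows these limits.

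**Figure D2:**
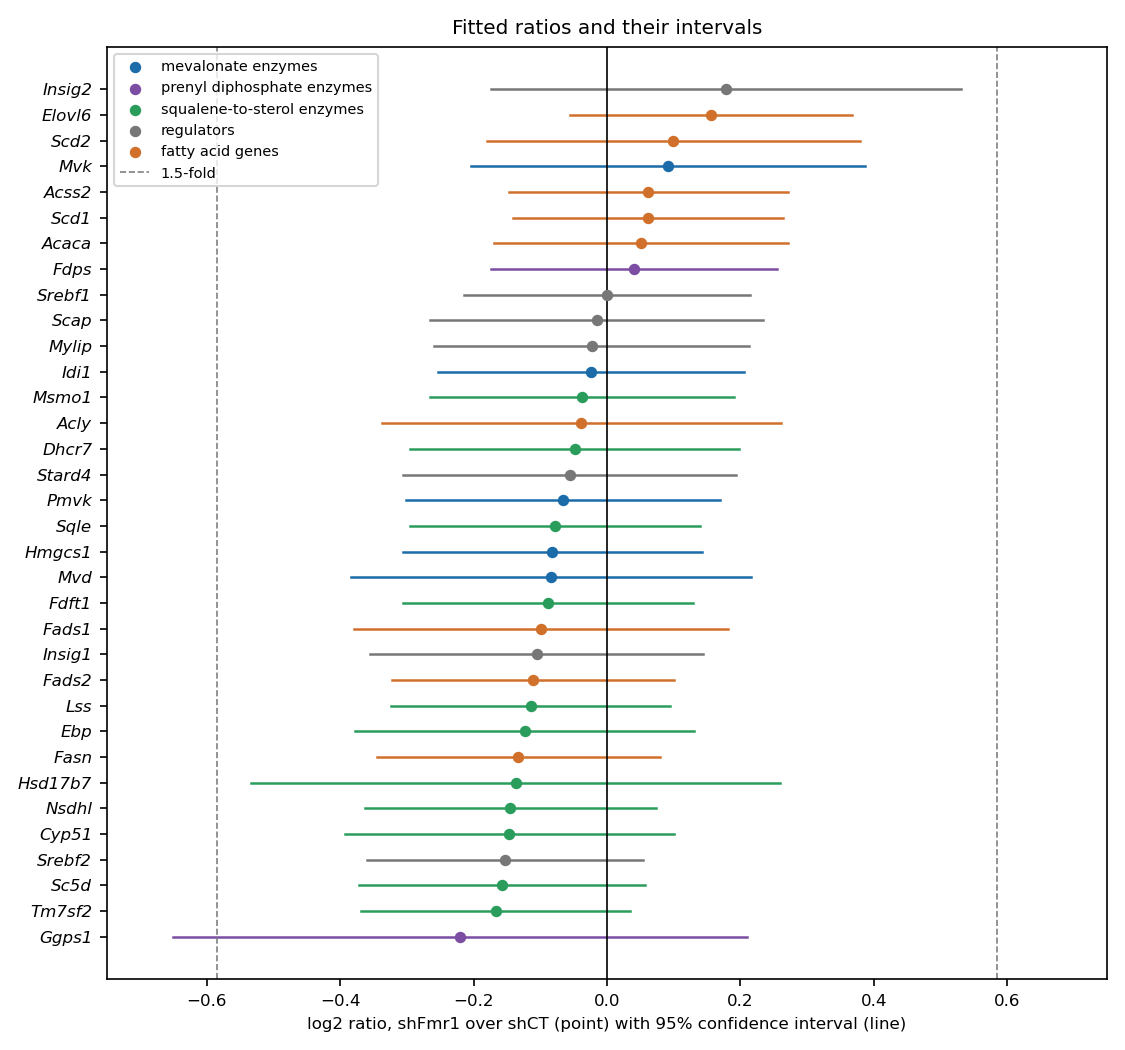
Fitted log2 ratio of shFmr1 over shCT (points) with its 95% confidence interval (lines) for the 34 genes, ordered by ratio and coloured by role, with dashed lines at 1.5-fold. Every interval crosses 0, and the interval of Ggps1 alone reaches past a dashed line.

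The enzymes of the mevalonate steps did not differ between the populations beyond the spread of the arrays. Of the 5 measured, 4 had means below 0, with a median of -0.07. Hmgcs1, which makes HMG-CoA, read 0.17, -0.15, -0.07 and -0.27 (mean -0.08 ± 0.19, 95% confidence interval -0.31 to 0.14). It was above 0 on replicate 1 and below it on the others. Its 2 features averaged 0.04 and -0.21. Mvk, mevalonate kinase, averaged 0.09 ± 0.39 and ran from -0.34 on replicate 4 to 0.60 on replicate 1, the highest value of the set on that array. Pmvk and Mvd, the next kinase and the decarboxylase, averaged -0.07 ± 0.20 and -0.08 ± 0.30, and Idi1, the isomerase of the prenyl units, -0.02 ± 0.19. Pmvk and Mvd, like Hmgcs1, were positive on replicate 1 alone, and all 5 enzymes were negative on replicate 4.

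The prenyl diphosphate enzymes were each measured by 2 features that disagreed. Fdps, which makes farnesyl diphosphate, read 0.20, -0.04, 0.00 and 0.01 (mean 0.04 ± 0.11), with feature means of -0.18 and 0.27. The higher feature was above 0 on every array, from 0.07 to 0.41, and the lower one was below 0 on every array, from -0.46 to -0.01. These features were annotated with different accessions. Ggps1, which makes geranylgeranyl diphosphate, read 0.06, -0.16, -0.95 and 0.17 (mean -0.22 ± 0.51). The low value on replicate 3 came from 1 feature, at -2.36, while the other read 0.46 there. The mean of Ggps1, the lowest of the set, thus rested on 1 feature on 1 array, and without replicate 3 it was 0.03 with the dye term kept and 0.02 without it.

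All 11 enzymes from squalene to sterols had means below 0, with a median of -0.12, against 50.5% of all genes with a mean below 0. None passed the test, and the means were between -0.17 and -0.04. Fdft1, squalene synthase, read -0.06, -0.05, -0.28 and 0.03 (mean -0.09 ± 0.13). Sqle, squalene epoxidase and a rate-limiting step, read 0.27, -0.27, 0.11 and -0.42 (mean -0.08 ± 0.32). It was positive on both arrays with shFmr1 in Cy5 and negative on both with shFmr1 in Cy3. Lss, which closes the ring to lanosterol, read -0.07, -0.13, -0.21 and -0.04 (mean -0.11 ± 0.07), with all 3 features averaging below 0. Cyp51, the lanosterol demethylase, read 0.11, -0.18, -0.28 and -0.24 (mean -0.15 ± 0.18, 95% confidence interval -0.39 to 0.10), and its 3 features averaged from -0.27 to -0.06.

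Among the enzymes after lanosterol, Tm7sf2, a sterol C14 reductase, had the smallest SD of the 11 squalene-to-sterol enzymes. It read -0.10, -0.22, -0.14 and -0.21, all below 0, with a mean of -0.17 ± 0.06 and a 95% confidence interval from -0.37 to 0.03 (limma adjusted p = 0.973). It was measured by 1 feature. Nsdhl, a sterol dehydrogenase of C4 demethylation, read -0.08, -0.12, -0.04 and -0.35 (mean -0.14 ± 0.14), with all 4 features averaging below 0. Sc5d, the sterol C5 desaturase, read 0.08, -0.28, -0.13 and -0.30 (mean -0.16 ± 0.17). Ebp, the sterol isomerase, read -0.04, -0.46, 0.04 and -0.03 (mean -0.12 ± 0.23). Its mean rested on replicate 2, since the other arrays lay between -0.04 and 0.04. Dhcr7, which makes cholesterol in the last step of one branch, read -0.10, -0.09, 0.27 and -0.27 (mean -0.05 ± 0.23), with features at -0.15 and 0.05. Msmo1, the C4 methyl oxidase, averaged -0.04 ± 0.27 with a range from -0.28 to 0.32, and Hsd17b7, a ketoreductase of the same stage, -0.14 ± 0.51 with a range from -0.57 to 0.60. Hsd17b7 was the highest gene of the set on replicate 3 and the lowest on replicates 1 and 4.

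**Figure D3:**
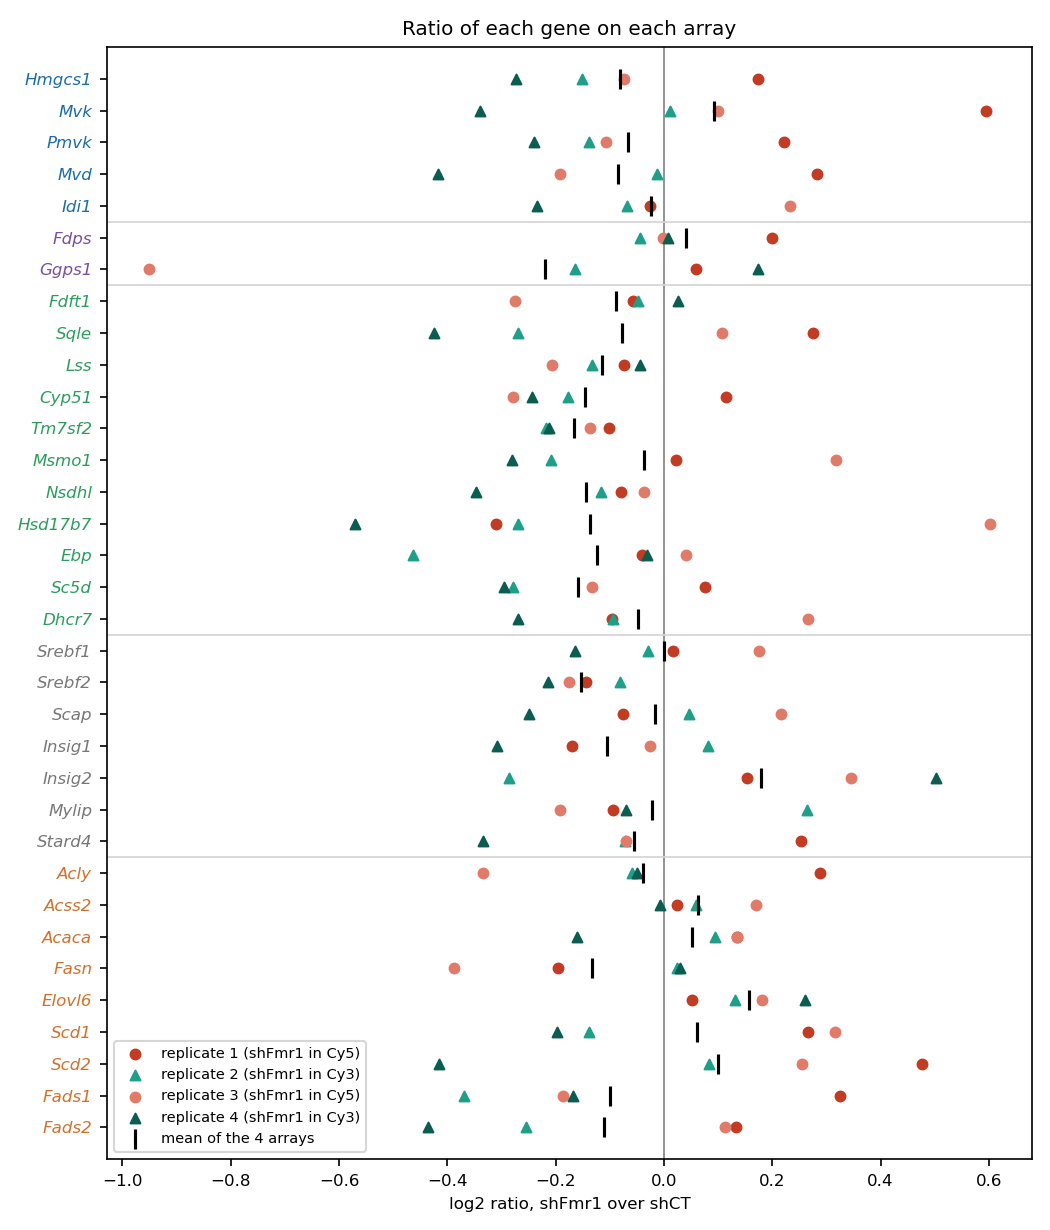
Log2 ratio of shFmr1 over shCT (x axis) of the 34 genes on each of the 4 arrays, with circles for shFmr1 in Cy5, triangles for shFmr1 in Cy3 and a bar for the mean. Tm7sf2, Lss, Nsdhl and Srebf2 lie below 0 on all 4 arrays and Elovl6 above it, while Ggps1 on replicate 3 lies at -0.95.

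Of the 7 regulators, Srebf2 alone kept 1 sign on all 4 arrays. It read -0.14, -0.08, -0.18 and -0.21 (mean -0.15 ± 0.06, 95% confidence interval -0.36 to 0.05, limma adjusted p = 0.973), or 89.9% of the control level. Its 4 features averaged -0.15, 0.06, -0.27 and -0.26, and the 2 annotated with the RefSeq transcript were below 0 on every array. Srebf1 read 0.02, -0.03, 0.17 and -0.16, with a mean of 0.00 ± 0.14, and it did not pass the test either (95% confidence interval -0.21 to 0.21). Scap, the escort of the SREBPs, read -0.08, 0.05, 0.22 and -0.25 (mean -0.02 ± 0.20). Insig1, itself an SREBP target that retains SCAP, read -0.17, 0.08, -0.03 and -0.31 (mean -0.11 ± 0.17), with features at -0.24 and 0.03. Insig2, its relative, read 0.15, -0.29, 0.35 and 0.50 (mean 0.18 ± 0.34), the highest mean of the set. It was positive on 3 arrays and negative on replicate 2, and its 2 features averaged 0.17 and 0.19. Stard4, a cytosolic sterol carrier, read 0.25, -0.07, -0.07 and -0.33 (mean -0.06 ± 0.24), and its 3 features averaged from -0.33 to 0.09. Mylip, a ubiquitin ligase that lowers lipoprotein receptors, read -0.09, 0.27, -0.19 and -0.07 (mean -0.02 ± 0.20), with features at -0.09 and 0.04.

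The fatty acid genes were divided, with 4 of 9 means below 0 and a median of 0.05. Acly and Acss2, which make cytosolic acetyl-CoA from citrate and from acetate, averaged -0.04 ± 0.25 and 0.06 ± 0.08. Acss2 read 0.02, 0.06, 0.17 and -0.01 and its 4 features averaged from -0.07 to 0.16. Acaca, the acetyl-CoA carboxylase that starts fatty acid synthesis, read 0.14, 0.09, 0.14 and -0.16 (mean 0.05 ± 0.14), with 5 features averaging from -0.08 to 0.14. Fasn, fatty acid synthase, read -0.20, 0.02, -0.39 and 0.03 (mean -0.13 ± 0.20, 95% confidence interval -0.35 to 0.08). It was below 0 on both arrays with shFmr1 in Cy5 and near 0 on the others.

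Elovl6, which lengthens the product of fatty acid synthase, read 0.05, 0.13, 0.18 and 0.26, above 0 on every array. Its mean was 0.16 ± 0.09 and its 95% confidence interval ran from -0.06 to 0.37 (limma adjusted p = 0.973), on 1 feature. The desaturases depended on the array. Scd1 read 0.27, -0.14, 0.32 and -0.20 (mean 0.06 ± 0.27) and Scd2 0.48, 0.08, 0.25 and -0.42 (mean 0.10 ± 0.38). Both introduce the first double bond into saturated fatty acids. Fads1 and Fads2, the desaturases of polyunsaturated fatty acids, averaged -0.10 ± 0.30 and -0.11 ± 0.28. Fads2 read 0.13, -0.26, 0.11 and -0.44, with the same split by dye as Scd1. The 4 desaturase genes were all positive on replicate 1, and Scd1, Fads1 and Fads2 were negative on both arrays with shFmr1 in Cy3.

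Few genes kept 1 sign over the arrays. Of the 34 genes 4 were negative on all 4 arrays, where 5.88% of all genes were, and 1 was positive on all 4, where 5.37% of all genes were. The count of 4 differs from the background share by few genes, and nothing particular to the set is read from it.

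The position of the set differed between arrays. Its median was 0.06, -0.09, -0.01 and -0.22 in replicate order, while the median of all genes stayed between -0.01 and 0.01. On replicate 4, 28 of the 34 were below 0, against 52.5% of all genes, and on replicate 2, 25, against 50.7%. On replicates 1 and 3 the counts were 13 and 18, against 50.3% and 47.7% of all genes. The 11 squalene-to-sterol enzymes were below 0 in 7, 11, 6 and 10 cases in replicate order, and the 9 fatty acid genes in 1, 4, 3 and 7. The plot of the set by array shows the lower position of the set on replicate 4.

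**Figure D4:**
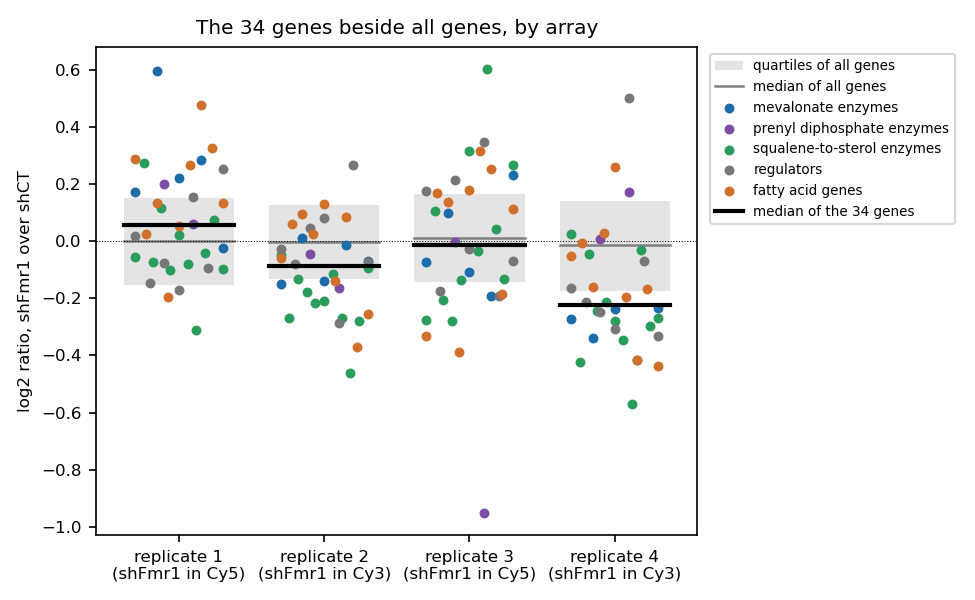
Log2 ratio of shFmr1 over shCT (y axis) of the 34 genes on each array, coloured by role, with the median of the set (black) over the quartiles (grey box) and median of all 19083 genes. The set lies at a median of -0.22 on replicate 4 and 0.06 on replicate 1.

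The median of the set was higher on the arrays with shFmr1 in Cy5 (0.06 and -0.01) than on those with shFmr1 in Cy3 (-0.09 and -0.22). The values also differed between arrays of the same orientation. With shFmr1 in Cy5 the genes had a median of 0.07 over the mean of the 2 arrays, and with shFmr1 in Cy3 a median of -0.16. The dye coefficient, the ratio with shFmr1 in Cy5 minus that in Cy3, was positive for 27 of the 34 genes, against 51% of all genes, with a median of 0.18. Sqle (0.54), Fads2 (0.47) and Scd1 (0.46) had an unadjusted limma p under 0.05 for it, or 3 of 34 where 6.49% of all genes had one, and 0 passed adjusted p of 0.05 among the 34 (adjusted p = 0.730 for each of these) or among all genes. The 5 mevalonate enzymes had positive coefficients, as did 9 of the 11 squalene-to-sterol enzymes. Elovl6, Srebf2, Fasn, Ggps1, Lss, Fdft1 and Mylip had negative ones. Replicate 4 also had the widest values of the arrays, with an SD of 0.414 over all features against 0.319 to 0.370. The part of dye and of the single array in the low values of the set was not tested.

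**Figure D5:**
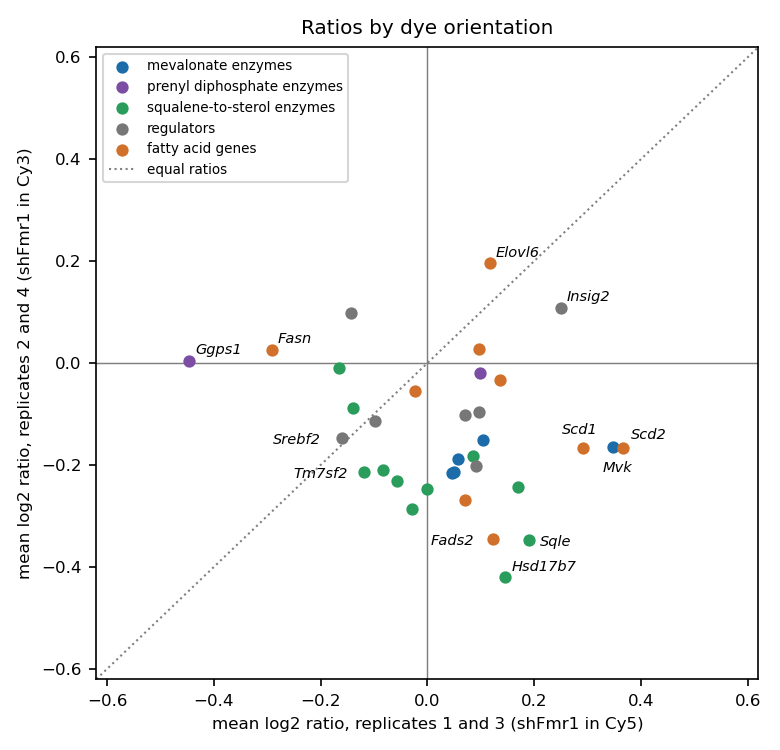
Mean log2 ratio of each gene on the arrays with shFmr1 in Cy5 (x axis) against that on the arrays with shFmr1 in Cy3 (y axis), coloured by role, with a dotted line of equal ratios. Most genes lie below the dotted line, among them Sqle (0.19 against -0.35), while Elovl6 (0.12 against 0.20) lies above it.

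The arrays did not rank the 34 genes alike. Over the 34 genes, which are not independent replicates, the ratios of pairs of arrays had Pearson correlations between -0.27 (replicates 3 and 4) and 0.08 (replicates 2 and 4), and between -0.05 and 0.06 over all genes. Over all genes, the pairs of the same dye orientation were at 0.06 (replicates 1 and 3) and 0.04 (replicates 2 and 4). Every pair of unlike orientation was between -0.05 and -0.02. Over the 34 genes, the pairs of the same orientation were at -0.005 (replicates 1 and 3) and 0.08 (replicates 2 and 4). The unlike pairs there ran from -0.27 to -0.02. All 4 arrays share a platform. Of the 23 genes with more than 1 feature, 10 had features that averaged on opposite sides of 0. The share over all genes with more than 1 feature was not counted, so nothing particular to the set is read from it. The median range between the features of a gene of the set was 0.15, of the same order as the gene means themselves.

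Of 60 measured genes that border the pathway, 3 had an unadjusted p under 0.05, a share near the 3.77% of all genes. Among 8 measured genes of SREBP processing and the sterol-sensing LXR receptors, 1 had an unadjusted p under 0.05, Nr1h3, the gene of LXR alpha, at -0.53, 0.06, -0.42 and -0.42 (mean -0.33 ± 0.26, limma adjusted p = 0.973). Erlin1, a lipid-raft protein of the endoplasmic reticulum that binds SREBP complexes, followed at 0.10 ± 0.41, and the list had 2 means below 0. Of 12 genes of sterol transport and storage 7 were below 0 and 0 had an unadjusted p under 0.05, with Osbpl2, an oxysterol-binding protein relative, at -0.18 ± 0.29 and Scarb1, a lipoprotein receptor, at -0.14 ± 0.40. Of 11 genes that use prenyl groups 5 were below 0 and 0 had an unadjusted p under 0.05, with Dolk, dolichol kinase, at 0.16 ± 0.16 and Coq2, of coenzyme Q synthesis, at 0.16 ± 0.10.

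Of 18 further fatty acid synthesis genes 11 were below 0. The smallest p belonged to Slc25a1, the mitochondrial citrate carrier that feeds ATP citrate lyase, at -0.28, -0.31, -0.14 and -0.99 (mean -0.43 ± 0.38, limma adjusted p = 0.973). It was below 0 on all 4 arrays and lowest on replicate 4. Acsl4, an acyl-CoA synthetase, averaged -0.23 ± 0.20. Of 11 fatty acid oxidation genes 6 were below 0, and Acadl, the long-chain acyl-CoA dehydrogenase, read -0.42, -0.29, -0.30 and -0.12 (mean -0.28 ± 0.12, limma adjusted p = 0.973), with Hadha, of the trifunctional protein, at 0.18 ± 0.42. Slc25a1 and Acadl were the only genes of their lists with an unadjusted p under 0.05, and 0 of these 60 bordering genes passed over all genes.

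Markers of the cell types that the cultures could hold were compared in the same way, as shifts only, since ratios give no level. None of these markers passed the adjusted test (smallest limma adjusted p = 0.973). Of 11 ES markers 4 were below 0 (median 0.09) and 2 were higher at an unadjusted p under 0.05, where 1.71% of all genes were, with Lin28a at 0.26 ± 0.11 and Nanog at 0.33 ± 0.52. Nanog averaged 0.72 on the arrays with shFmr1 in Cy5 and -0.06 on those with shFmr1 in Cy3. Its higher mean thus came from 1 dye orientation only, while Lin28a averaged 0.23 and 0.28 in the same order. Of 20 endoderm markers 14 were below 0 (median -0.17) and 6 above it, the highest being Apob at 0.17 ± 0.35. At an unadjusted p under 0.05, 7 were lower, where 2.05% of all genes were, among them Cubn at -1.01 ± 0.96 and Col4a1 at -0.39 ± 0.37. For 5 of the 20 the dye coefficient had an unadjusted limma p under 0.05, against 6.49% of all genes. These 5 were all lower with shFmr1 in Cy5, Cubn and Col4a1 among them. The endoderm medians by array were -0.19, -0.01, -0.22 and -0.08, lower on the arrays with shFmr1 in Cy5, where the cholesterol and fatty acid genes were higher. Of 11 fibroblast markers 2 were below 0 (median 0.22) and 2 were higher at such a p, with Col5a1 at 0.32 ± 0.23 and Postn at 0.22 ± 0.13. Their medians by array were 0.45, 0.28, 0.00 and -0.19, highest on replicate 1 and lowest on replicate 4 as for the cholesterol and fatty acid genes. The order of replicates 2 and 3 was the other way for the set (-0.09 and -0.01). Single fibroblast markers differed. Col1a1 ran from 2.19 on replicate 1 to -0.99 on replicate 4, while Col5a1 (0.66) and Postn (0.31) were highest on replicate 4. The part of either cell type in the values of the set was not tested.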

How the data were processed

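RNA of shFmr1 and shCT mouse ES cells was compared on 4 dye-balanced Agilent arrays, labelled with the Low RNA Input QuickAmp kit per the labels' protocols. The authors deposited 1 log ratio per feature and array, read here as log2, with no value missing. The sources used here do not give their software, normalization or log base. Array medians ran from -0.02 to 0.02. Of 45214 features, 33649 had 1 gene symbol in a 2016 platform annotation, 56 several and 11509 none there, and the latter groups were left out. Features were averaged per gene and array. The test was limma's moderated linear model (limma 3.58.1, R 4.3.3; lmFit, then eBayes) with a dye term, Benjamini-Hochberg adjustment over all 19083 genes and a threshold of 0.05, and the procedure was tested on simulated data. The number of arrays limits the precision. The array titles share a number and differ only in the suffix, which may mean a shared slide, but they do not say so. No batch was tested.

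The genes and lists were chosen with earlier results of these data known. Every measured gene of the set is named, the 12 with the smallest p, key genes and those with features of opposite sign by array, and of each other list the 2 with the smallest p. Alternatives were a fit without the dye term, other ways to centre, scale and normalize, other summaries of features, other variance models, thresholds and log base, and leaving out each array.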

Additional observations from a re-analysis of the deposited data

Results flagged for a closer look

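Among 41 results, 34 genes of the set, Fmr1 and 6 list medians, 1 array stood far from the other 3 by Dixon's test for 2. Chance flags about 1 in 20 such groups, here 2.05. Ebp, the sterol isomerase gene, read -0.46 on replicate 2 and between -0.04 and 0.04 on the others, on 1 feature. Acaca, the acetyl-CoA carboxylase gene, read -0.16 on replicate 4 and between 0.09 and 0.14 on the others. On that array its 5 features ran from -0.56 to 0.18.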

How the results depend on the processing

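No paired analysis was possible because each array already sets 1 shFmr1 RNA against 1 shCT RNA and there is 1 group of arrays. The fits of 1 dye orientation alone were added after seeing the data. In the 13 settings apart from leaving out arrays, 0 genes of the set and 0 of all genes passed the adjusted test. Fmr1 stayed negative in every fit (-1.54 to -1.25 with 1 array left out) and passed without replicate 1 (adjusted p = 0.0382) or replicate 2 (0.0327), dye term kept.

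Leaving out 1 array gave 0 to 87 genes past the threshold (87 without replicate 2, 25 without replicate 1 and 10 without replicate 3, dye term kept, and 0 in each fit without it) but 0 of the set. It gave 0 to 1 of the set at an unadjusted p under 0.05 in each direction, namely Ggps1 lower without replicate 1, Insig2 higher without replicate 2 and Hsd17b7 lower without replicate 3. It gave 5 to 12 genes negative and 1 to 5 positive on all remaining arrays, and 0 to 3 with a dye coefficient of unadjusted p under 0.05. The shares of all genes for these counts are not given here, so nothing particular to the set is read from them. The median of the set ran from -0.11 to 0.0021, above 0 without replicate 4 when no dye term was used. The medians ran from -0.162 to 0.0267 for the mevalonate enzymes, -0.242 to 0.0616 for the prenyl diphosphate enzymes, -0.155 to -0.102 for the squalene-to-sterol enzymes, -0.107 to 0.0367 for the regulators and -0.0257 to 0.085 for the fatty acid genes. Single genes that changed sign ran as follows: Mvk -0.0761 to 0.235, Pmvk -0.162 to 0.0168, Mvd -0.207 to 0.0343, Idi1 -0.109 to 0.0464, Fdps -0.0134 to 0.0908, Ggps1 -0.473 to 0.0323, Sqle -0.196 to 0.0377, Msmo1 -0.155 to 0.0435, Hsd17b7 -0.383 to 0.091, Dhcr7 -0.153 to 0.0422, Srebf1 -0.0587 to 0.0545, Scap -0.0927 to 0.0621, Insig2 -0.0179 to 0.376, Mylip -0.119 to 0.0607, Stard4 -0.159 to 0.0367, Acly -0.194 to 0.117, Acaca -0.0127 to 0.122, Scd1 -0.0228 to 0.148, Scd2 -0.0257 to 0.271, Fads1 -0.241 to 0.0287. The cause of these changes of sign was not tested.

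In the setting with 1 feature per gene, the feature with the smallest SD over these same arrays was kept. That choice favours small p-values, so nothing is read from the counts it gave. At an unadjusted p under 0.05, 2 genes of the set were lower (Cyp51 and Srebf2) and 1 was higher (Fdps). In that setting 3 were positive on all arrays and 5 had such a p for the dye coefficient. Hmgcs1 (0.0419), Ggps1 (0.0623), Insig1 (0.027) and Stard4 (0.0733) changed sign. Without variance moderation 2 were lower (Tm7sf2 and Srebf2). Centring on the median, quantile normalization and the median over features each gave 2 genes positive on all arrays, and centring turned Srebf1 (0.0011). The shares of all genes in these settings are not given here. Read as natural logs, the median of the set would be -0.103. On the gene strand only, CCAAT was found in 12 of the 27 genes with a promoter window (44.4%, against 23.7% of all genes).

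The arrays with shFmr1 in Cy5 alone gave a median of 0.0698 for the set, 0.0698 for the regulators and 0.0579 for the mevalonate enzymes, all now above 0, with 1 gene higher at an unadjusted p under 0.05 (Scd2), 8 negative and 11 positive on both arrays. There Hmgcs1 (0.0495), Pmvk (0.0579), Mvd (0.0461), Idi1 (0.10), Sqle (0.19), Msmo1 (0.17), Hsd17b7 (0.15), Ebp (0.00), Dhcr7 (0.0847), Srebf1 (0.10), Scap (0.0698), Stard4 (0.0911), Fads1 (0.0698), Fads2 (0.12) changed sign. Those with shFmr1 in Cy3 alone gave a median of -0.165 for the set and -0.0549 for the fatty acid genes, the latter now below 0, with 3 genes lower (Sqle, Hsd17b7 and Fads2), 21 negative and 2 positive on both arrays, and Mvk (-0.16), Fdps (-0.0188), Ggps1 (0.0049), Mylip (0.10), Acaca (-0.0332), Fasn (0.0263), Scd1 (-0.17), Scd2 (-0.17) changed sign. The squalene-to-sterol median stayed below 0 in both (-0.0291 in Cy5 and -0.232 in Cy3). The prenyl diphosphate median, over 2 genes, did so at -0.173 and -0.0069. It included the Ggps1 value of -0.95 on replicate 3. Without that array it was above 0, at 0.0616 with the dye term kept and 0.0387 without it. The shares of all genes for the counts of each orientation are not given here, so nothing particular to the set is read from those counts.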
